A study of Mus musculus with 12 samples.

Results

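The very long genes of the mouse genome, defined as transcript intervals of 300 kb or more, were followed in IgG control chromatin of mpkCCD cells. Intervals were taken from mouse chromosomes 1, 2, 5, 6, 8, 9, 11, 13, 14 and 17, 4 long genes were left out by the selection, and only the longest of overlapping intervals of one gene was kept. This gave 291 genes, 1 interval each, out of 508 deposited intervals of that length on those chromosomes and 33062 intervals in all. A further 16 intervals of that length carry microRNA names but hold only 52 to 108 aligned bases, spread over the span, and were set apart after the data were seen. The 291 genes were 300.6 to 2241 kb long with a median of 439.1 kb, 109 of them were at least 500 kb and 27 at least 1000 kb, and together they covered 160.7 Mb.

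mpkCCD is a line of transformed mouse collecting duct principal cells, and clone 11 alone was used. Cells were grown with 2% dialyzed serum on permeable supports and kept for 24 h without serum. The dDAVP group was given 0.1 nM dDAVP, an agonist of the vasopressin V2 receptor, from start to end, and the control group its vehicle. The study asked which genes vasopressin regulates through RNA polymerase II, and its 12 samples formed 4 groups of 3, of which the 3 dDAVP and 3 vehicle samples precipitated with IgG are used here and the 6 with a polymerase antibody were not analysed here. Both groups share the cell line, the serum withdrawal, the crosslinking with 1.11% formaldehyde and the IgG antibody, which binds no chosen target. No RNA was measured in these samples, so no marker gene's expression could be checked.

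Very long genes are mostly intron, and many encode adhesion molecules, ion channels and receptors of neurons. A polymerase needs hours to cross them, they often replicate late, and several lie at common fragile sites, where chromosomes break under replication stress. Reads of an IgG control are chromatin recovered without a target, so their density over a gene follows the number of DNA copies, how the chromatin shears and dissolves, and how well the bases amplify and map. In the 291 intervals annotated exons took a median of 0.920% of the bases, against 6.49% in the 8101 intervals of at least 20 kb on the same chromosomes, which served as the reference. Median GC content was 41.4% (range 34.8 to 51.9%) against 43.8%, and 220 of the 291 lay below the reference median. They held 7.42 CpG dinucleotides per kb against 10.6, while repeats made up 25.7% and 25.4% of the bases.

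A set of 6 genes shows that range of base composition, and for each of them an intronic stretch of 100 bases is printed from the plus strand of GRCm38.p6, whose coordinates are those of mm10. Each stretch is unmasked, has the GC content of its whole gene to the nearest percent and is the nearest such stretch to the gene's centre, with G and C in capitals. Cdh8, a cadherin, and the noncoding gene 5730522E02Rik had the lowest density in dDAVP experiment 3 relative to the other libraries among genes with a symbol. Agap1, a GTPase-activating protein of Arf, and Sorcs2, a receptor of the sortilin family, had the highest. Arl15, a small GTPase, was low in every library, and Cntnap2, a contactin-associated adhesion protein, is the longest of the genes.
Cdh8, chr8:99220340-99220439: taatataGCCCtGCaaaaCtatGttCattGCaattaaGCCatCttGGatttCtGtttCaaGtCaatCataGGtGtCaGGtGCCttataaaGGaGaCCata
5730522E02Rik, chr11:25913018-25913117: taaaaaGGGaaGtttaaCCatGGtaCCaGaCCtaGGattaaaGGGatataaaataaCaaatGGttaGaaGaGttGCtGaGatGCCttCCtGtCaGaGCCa
Agap1, chr1:89674839-89674938: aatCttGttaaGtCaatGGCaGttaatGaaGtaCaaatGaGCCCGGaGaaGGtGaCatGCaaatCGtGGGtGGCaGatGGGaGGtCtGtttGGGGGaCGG
Sorcs2, chr5:36207657-36207756: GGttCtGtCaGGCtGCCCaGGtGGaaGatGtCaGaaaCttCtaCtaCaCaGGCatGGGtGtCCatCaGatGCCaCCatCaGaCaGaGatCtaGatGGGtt
Arl15, chr13:113975972-113976071: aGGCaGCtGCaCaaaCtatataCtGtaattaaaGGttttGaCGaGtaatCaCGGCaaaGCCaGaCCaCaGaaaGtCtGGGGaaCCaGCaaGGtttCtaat
Cntnap2, chr6:46180405-46180504: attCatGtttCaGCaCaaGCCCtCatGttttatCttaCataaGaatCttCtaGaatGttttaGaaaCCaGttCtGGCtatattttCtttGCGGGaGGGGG
GC content was 37% in the Cdh8 stretch, 39% in that of 5730522E02Rik, 49% in that of Agap1, 51% in that of Sorcs2, 43% in that of Arl15 and 38% in that of Cntnap2.

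The libraries held 10588927 to 19748658 reads over all intervals, and a very long gene held a median of 2600 to 6158 reads, so its density carried a counting error of 1.27 to 1.96% at the median. A read counts in every interval it overlaps, and reads without molecular identifiers are not independent molecules, so these errors cover counting only. Experiments 1 and 2 of a group differed across all genes by about the sampling noise, with chi-square over its degrees of freedom of 1.02 for dDAVP and 1.01 for vehicle, and each such pair was counted as 1 sample (n = 2 per group). Over the 291 genes alone this ratio was 1.28 for the dDAVP pair, above the limit of 1.1 used, and 1.04 for the vehicle pair. It is not stated that the experiments came from separate cultures, so p-values speak of the spread among these samples only, and that spread may be technical. dDAVP experiment 3 stood apart from the other 5 libraries, so results are given with and without it. Where 3 values of a group are listed, they follow experiments 1, 2 and 3.

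In 5 of the 6 libraries the very long genes held more reads per kb than the other genes of their chromosome. Relative density is the reads per kb of a gene divided by the median over the reference intervals of its chromosome, so 1 is the level of the typical gene of at least 20 kb. The 291 genes had medians of 1.19 and 1.18 in the first 2 dDAVP experiments, and of 1.18, 1.17 and 1.26 in the 3 vehicle experiments. The third dDAVP experiment had 0.655. The genes above 1 numbered 243, 238 and 73 of 291 in the dDAVP libraries and 247, 245 and 260 in the vehicle libraries. The genes took 11.0 to 11.6% of the reads in the 5 libraries and 7.08% in dDAVP experiment 3.

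**Figure D1:**
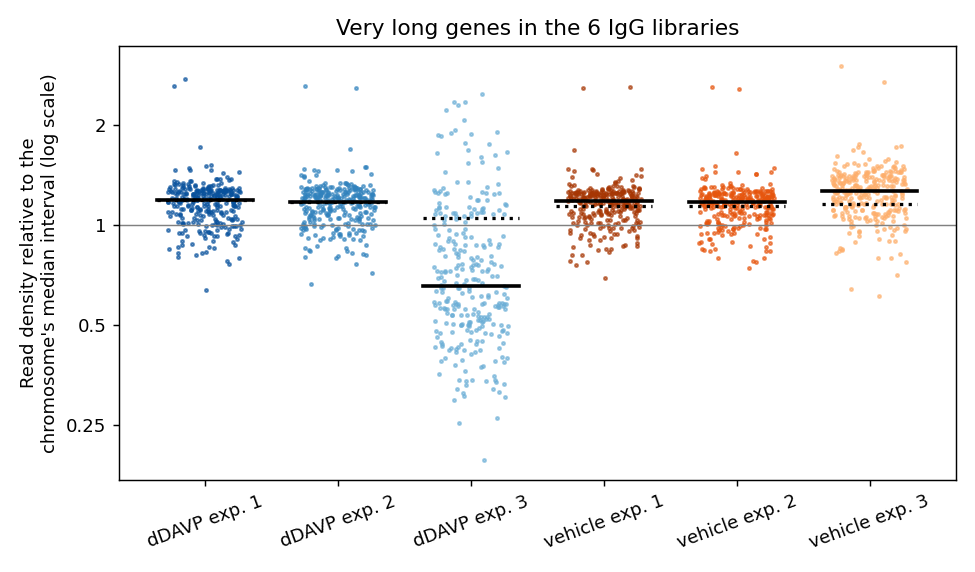
Relative density on a log axis of each of the 291 very long genes (points) in each IgG library, with the median (solid bar) and the median after division by the fit on GC content (dotted bar). The medians lie at 1.17 to 1.26 in 5 libraries and at 0.655 in dDAVP experiment 3, where the dotted bar is at 1.05.

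Counted gene by gene, 85 of 291 (29.2%) were at least 1.2 times their chromosome in every library but dDAVP experiment 3, against 7.3% of the reference intervals, which include the very long genes and several transcripts of some genes. Only Arl15 was at most 0.8 times its chromosome in those 5 libraries, against 3.06% of the reference. With dDAVP experiment 3 included, 7 genes (2.41%) reached 1.2 in every library, a share near the 2.44% of the reference. These were Enox1, Gm21119, Kirrel3, Mtus2, Ntrk2, Phactr1 and Spock1. Above 1 in the 5 libraries and below 1 in dDAVP experiment 3 were 170 genes (58.4%) against 17.7% of the reference. Above 1 in all 6 were 53 (18.2%) against 14.0%, and below 1 in all 6 were 12 (4.12%) against 14.3%. After division by a fit on GC content, described below, 45 genes (15.5%) were at least 1.2 in the 5 libraries against 6.05% of the reference, 4 (1.37%) at most 0.8 against 3.07%, 17 (5.84%) at least 1.2 in all 6 against 3.51%, and 2 (0.687%) at most 0.8 in all 6 against 1.85%. Then 82 (28.2%) were above 1 in the 5 libraries and below 1 in dDAVP experiment 3 against 10.8%, 140 (48.1%) above 1 in all 6 against 23.7%, and 23 (7.9%) below 1 in all 6 against 24.1%. The rules other than 1.2 and 0.8 in every library were chosen after the data were seen.

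Longer classes of genes held more reads per kb in each of the 5 libraries up to the class of 500 to 1000 kb, and genes over 1000 kb were above that class in vehicle experiment 3 only. With 1 interval per gene, the median was 0.966 to 0.995 for 2908 genes of 20 to 50 kb, 1.01 to 1.03 for 730 genes of 100 to 200 kb and 1.04 to 1.103 for 212 genes of 200 to 300 kb. It was 1.15 to 1.22 for the 182 of 300 to 500 kb, 1.1996 to 1.29 for the 82 of 500 to 1000 kb and 1.18 to 1.33 for the 27 longer ones. The order was opposite in dDAVP experiment 3, from 1.19 in the shortest class to 0.501 in the longest. At the limit of 300 kb itself, the 3 shortest genes taken were Jazf1, Ranbp17 and Dync1i1, at 1.19, 1.31 and 1.30 as means over the 5 libraries. The 3 longest left out were Nxph1, Myo1d and Zfp423, of 297.8 to 298.6 kb, at 1.26, 1.09 and 1.17.

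**Figure D2:**
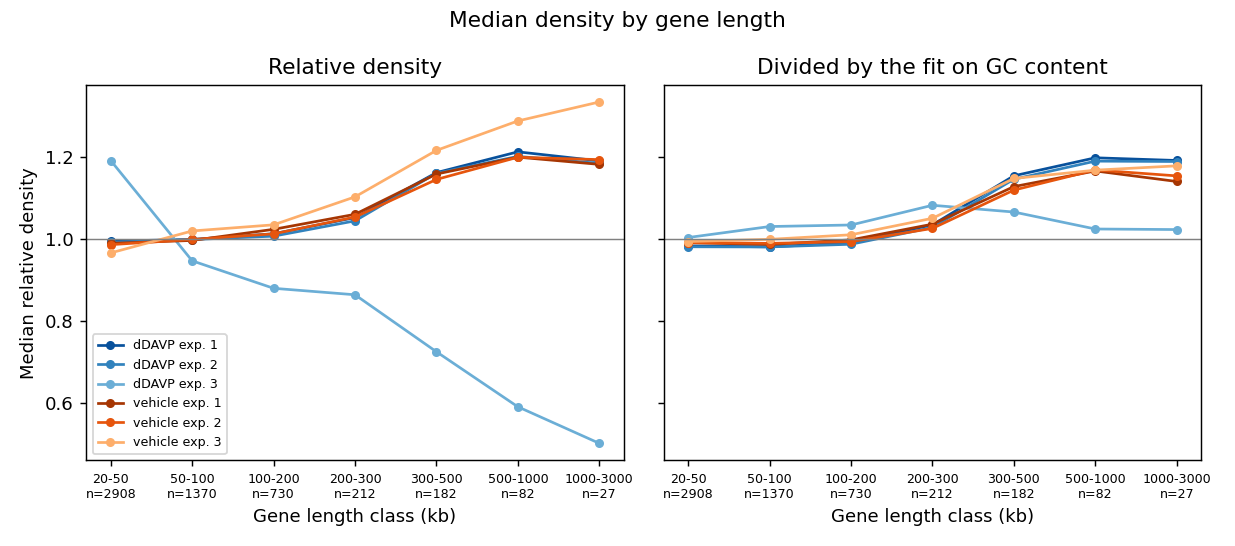
Median relative density by gene length class in each library, as measured (left) and after division by the fit on GC content (right), with the number of genes under each class. In 5 libraries the medians as measured rise to 1.18 or more in genes over 1000 kb, and after the division to 1.14 or more. In dDAVP experiment 3 those genes are at 0.501 as measured and at 1.02 after the division, where genes of 200 to 300 kb are at 1.08.

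GC content moved with these values. Among the 291 genes Spearman's rho between GC content and relative density was 0.844 in dDAVP experiment 3 and -0.610 in vehicle experiment 3, and 0.155, 0.178, -0.034 and -0.009 in the first 2 experiments of dDAVP and of vehicle. These describe 291 genes that share each library. In the 72 genes of lowest GC content (34.8 to 38.8%) the median was 0.462 in dDAVP experiment 3 and 1.39 in vehicle experiment 3, and all 72 were below 1 in the former. In the 72 of highest GC content (43.7 to 51.9%) it was 1.203 and 1.101, and 13 were below 1 in dDAVP experiment 3. In dDAVP experiment 1 the same gene sets had 1.16 and 1.204.

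Division of each library by its own cubic fit on GC content, made on the reference intervals, gave medians of 1.19, 1.17 and 1.05 in the dDAVP libraries and of 1.14, 1.14 and 1.16 in the vehicle libraries. The 1.05 of dDAVP experiment 3 was not above shorter genes there. Its divided medians were 1.03 at 100 to 200 kb, 1.08 at 200 to 300 kb and 1.07 at 300 to 500 kb. They were 1.02 both at 500 to 1000 kb and over 1000 kb. dDAVP experiment 3 was the lowest of the 6 libraries in 234 genes (80.4%) against 46.9% of the reference as measured, and in 159 (54.6%) against 38.3% after the division. It was the highest in 43 (14.8%) against 45.4%, and in 108 (37.1%) against 41.6%. Vehicle experiment 3 was the highest in 194 (66.7%) against 32.3%, and in 60 (20.6%) against 14.7%. Within narrow ranges of GC content, genes of 300 to 500 kb were also higher than those of 200 to 300 kb in each of the 5 libraries, without the fit. Among genes of 38 to 41% GC, the 5 libraries had 1.07 to 1.28 for 57 genes of 200 to 300 kb and 1.19 to 1.38 for 51 genes of 300 to 500 kb. Among genes of 41 to 44% GC they had 1.08 to 1.17 for 56 genes of 200 to 300 kb and 1.15 to 1.23 for 58 genes of 300 to 500 kb. Among genes of 44 to 47% GC they had 0.972 to 0.989 for 54 genes and 1.096 to 1.17 for 41 genes of the same lengths. Other steps in length did not all rise. At 44 to 47% GC the 677 genes of 20 to 50 kb had 0.988 to 1.03, above those of 200 to 300 kb in each of the 5 libraries. At 38 to 41% GC the 29 genes of 500 to 1000 kb were below those of 300 to 500 kb in each of the 5 but vehicle experiment 2. They were above in each of the 5 at 41 to 44% and at 44 to 47% GC. For genes of 200 to 300 kb and of 300 to 500 kb, dDAVP experiment 3 had 0.549 and 0.560 at 38 to 41% GC. It had 0.843 and 0.729 at 41 to 44% and 1.32 and 1.19 at 44 to 47%, so the longer class was lower there in the last 2 ranges only.

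**Figure D3:**
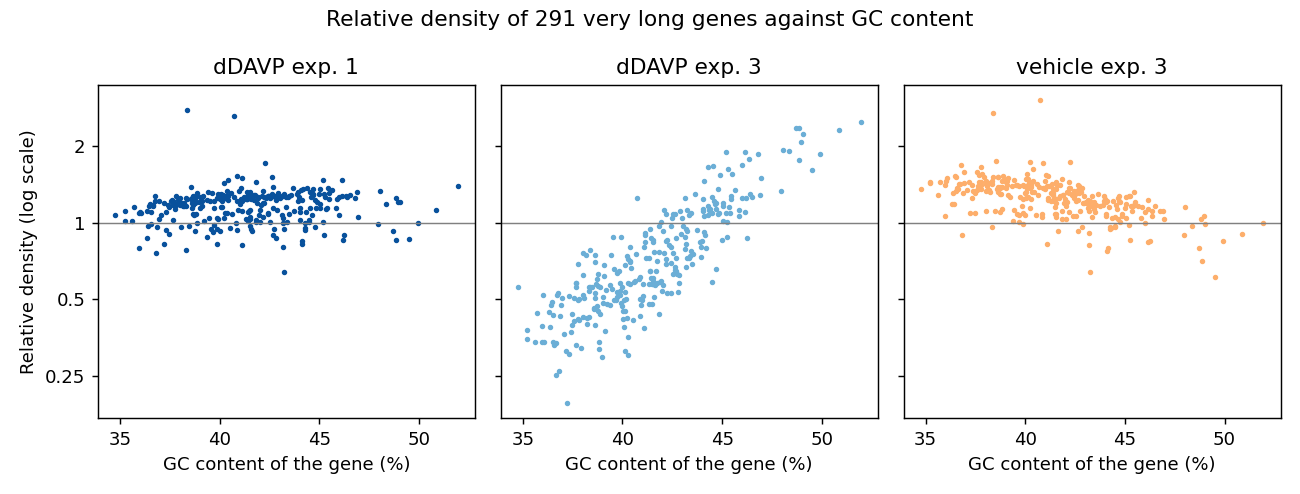
Relative density (log axis) against GC content for the 291 very long genes in dDAVP experiment 1, dDAVP experiment 3 and vehicle experiment 3, 1 point a gene. The points climb with GC content in dDAVP experiment 3 (rho 0.844), descend in vehicle experiment 3 (rho -0.610) and change little in dDAVP experiment 1 (rho 0.155).

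The comparison of dDAVP with vehicle asked whether IgG background over these genes differed with treatment. No very long gene passed edgeR's quasi-likelihood test (0 of 291, smallest adjusted p = 0.619), and none of the 30912 intervals tested did, a background of 0.0%. At an unadjusted p under 0.05 the counts were 0 of 291 genes and 236 of 30912 intervals (0.763%), and DESeq2 also called 0 genes. The fitted log2 ratio of dDAVP to vehicle was below 0 for 261 genes and above 0 for 30, with a median of -0.55, against 0.01 over all intervals. Without dDAVP experiment 3 the median was -0.09, and with an offset for GC content it was 0.03, with 167 genes above 0. The median relative density itself averaged 0.919 ± 0.374 (SD, n = 2) in the dDAVP samples and 1.22 ± 0.063 (SD, n = 2) in the vehicle samples, a difference of -0.300 (two-sided exact permutation p = 0.667, the smallest possible being 0.333). Treatment and the separate state of dDAVP experiment 3 cannot be told apart in the third experiment.

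The 3 largest fitted ratios were those of Rbfox3, Sorcs2 and Slc39a11, all rich in GC. Rbfox3, the neuronal splicing factor also known as NeuN, had relative densities of 1.39, 1.41 and 2.48 in the dDAVP libraries, and 1.28, 1.26 and 0.995 in the vehicle libraries. Its dDAVP libraries were all above its vehicle libraries, and its log2 ratio was 0.84 ± 0.49 (SE, 95% interval -0.37 to 2.05, edgeR adjusted p = 0.619). Sorcs2 had 1.12, 1.13 and 2.302 in the dDAVP libraries, and 1.08, 1.06 and 0.898 in the vehicle libraries, again with no overlap of the groups, and a log2 ratio of 0.66 ± 0.45 (SE). Slc39a11, a zinc transporter, had 1.21, 1.204 and 2.08 in the dDAVP libraries, and 1.202, 1.19 and 1.06 in the vehicle libraries, also with no overlap, and a log2 ratio of 0.61 ± 0.45 (SE). With the offset for GC content the ratios of Rbfox3, Sorcs2 and Slc39a11 became 0.06, -0.01 and 0.16.

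The 3 smallest were those of Kcnh7, Dach1 and an unnamed interval in the Klra cluster of natural killer cell receptors, all poor in GC. Dach1, a transcriptional cofactor that podocytes also use, had 1.02, 1.05 and 0.3502 in the dDAVP libraries, and 1.101, 1.07 and 1.43 in the vehicle libraries. Its vehicle libraries were all above its dDAVP libraries, and its log2 ratio was -1.01 ± 0.68 (SE, 95% interval -2.70 to 0.68, edgeR adjusted p = 0.619). Kcnh7, a potassium channel of the ether-a-go-go family, had 0.986, 1.02 and 0.331 in the dDAVP libraries, and 1.07, 1.05 and 1.37 in the vehicle libraries, and a log2 ratio of -1.01 ± 0.68 (SE). The Klra interval had 0.827, 0.837 and 0.196 in the dDAVP libraries, and 0.869, 0.844 and 1.09 in the vehicle libraries, and a log2 ratio of -1.06 ± 0.81 (SE). With the offset for GC content Kcnh7, Dach1 and the Klra interval had 0.02, 0.0014 and -0.22. In all, 75 genes (25.8%) had every dDAVP library below every vehicle library, against 15.1% of the reference, and 26 (8.93%) had every dDAVP library above, against 17.3%. After division by the fit on GC content the order turned, with 13 genes (4.47%) below, against 7.21% of the reference, and 37 (12.7%) above, against 8.2%.

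Experiments 1 and 2 alone, a comparison chosen after the data were seen, differed far less between the treatments. The log2 ratio of mean relative densities had a median of 0.006 and ran from -0.14 in Arl15 to 0.14 in Rbfox3, with 275 of 291 genes within 0.1 of 0. Its rho with GC content was 0.601. In edgeR's quasi-likelihood test of these 4 libraries, 51 of 291 genes (17.5%) had an adjusted p under 0.05, 11 higher and 40 lower with dDAVP, against 4.47% of 29574 intervals. The fitted log2 ratios of those 51 lay between -0.15 and 0.13. Their median GC content was 45.9% in the 11 and 37.97% in the 40, and a very long gene held a median of 14275 reads over the 4 libraries against 422 for an interval of any length. Since experiments 1 and 2 of a group differ by about the sampling noise, these p-values may carry counting error alone.

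Listed genes of cell adhesion and axon guidance had the most members, 46 of the 291, from the longest of the lists used, with 71 names. The lists do not cover every gene of a role. Their median over the 5 libraries was 1.202, against 1.199 over all 291 genes, and 43 of 46 (93.5%) were above 1 by the mean over the 5, against 247 (84.9%) of all 291. The group's median in dDAVP experiment 3 was 0.578, and 9 (19.6%) were above 1, against 73 (25.1%) of all 291. For this group and those that follow, the highest and lowest genes named are by the mean over the 4 samples, in which dDAVP experiment 3 counts as 1. Ptprt, a receptor tyrosine phosphatase that binds like molecules on other cells, was the highest, at 1.72, 1.699 and 0.857 in the dDAVP libraries, and 1.69, 1.65 and 1.72 in the vehicle libraries. It was between 1.65 and 1.72 in each of the 5 libraries and below 1 in dDAVP experiment 3, with GC content of 42.3% over 1134 kb. Edil3, a secreted integrin ligand, was the lowest of the group by the mean over the 4 samples, at 0.794, 0.822 and 0.393 in the dDAVP libraries, and 0.857, 0.838 and 1.06 in the vehicle libraries. It was under 1 in all libraries but vehicle experiment 3, and its GC content was 35.98%. Edil3 lies on chromosome 13 beyond 60 Mb, where 248 shorter reference intervals had a median of 0.805 over the 5 libraries.

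The cell surface genes Opcml and Ntm, both of the IgLON family, had 5-library means of 1.36 and 1.36, and Kirrel3, a relative of the podocyte protein nephrin, had 1.33. In dDAVP experiment 3 they had 0.497, 0.726 and 1.24, in the order of their GC content of 40.98%, 42.7% and 45.4%. Cdh4, or R-cadherin, went the other way, with 0.858, 0.838 and 1.601 in the dDAVP libraries, and 0.772, 0.778 and 0.613 in the vehicle libraries. At 49.5% GC it was below 1 in 5 libraries and above 1 in dDAVP experiment 3 only. The large teneurin Tenm2 had a 5-library mean of 1.29 and the guidance ligand Slit2, which repels growing axons, had 1.02.

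The list of ion channels and neurotransmitter receptors, which also holds ion exchangers, had 35 of the 291 genes. Their median over the 5 libraries was 1.25, with 32 (91.4%) above 1, against 84.9% of all 291. In dDAVP experiment 3 it was 0.631, with 9 (25.7%) above 1, against 25.1% of all 291. Their median GC content was 40.4%, against 41.4%. Grik4, a kainate receptor subunit, was the highest by the mean over the 4 samples, with 1.32, 1.32 and 1.93 in the dDAVP libraries, and 1.25, 1.24 and 1.15 in the vehicle libraries. Its highest library was dDAVP experiment 3, and its GC content was 48.03%. Ryr2, the calcium release channel of heart muscle, and Chrm3, a muscarinic receptor, had 5-library means of 1.46 and 1.49. The inositol trisphosphate receptors Itpr1 and Itpr2, which release stored calcium in most cells, had 0.955 and 0.9697.

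Listed genes of growth factor and kinase signalling, 26 in number, had a median of 1.17 over the 5 libraries. Above 1 were 21 (80.8%), against 84.9% of all 291. In dDAVP experiment 3 the median was 0.793, with 10 (38.5%) above 1, against 25.1%. Their median GC content was 42.6%, against 41.4%. Ntrk2, the receptor for brain-derived neurotrophic factor, was the highest by the mean over the 4 samples, with 1.47, 1.5 and 1.89 in the dDAVP libraries, and 1.37, 1.402 and 1.27 in the vehicle libraries. Ntrk2 was above 1.2 in every library. It lies on chromosome 13 before 60 Mb, where 247 shorter reference intervals had a median of 1.16 over the 5 libraries. Mast4, a microtubule-associated kinase, was the lowest, with 0.7999, 0.802 and 0.823 in the dDAVP libraries, and 0.7803, 0.794 and 0.816 in the vehicle libraries. Mast4 was below 1 in every library, and its 6 values were close together. It lies on chromosome 13 beyond 60 Mb, where 248 shorter reference intervals had a median of 0.805 over the 5 libraries. Agap1 had 0.924, 0.908 and 2.35 in the dDAVP libraries, and 0.872, 0.881 and 0.797 in the vehicle libraries, and at 48.7% GC it was the gene that stood highest in dDAVP experiment 3 against its other libraries, with a ratio of 2.68. Elmo1, a regulator of Rac and engulfment, had a 5-library mean of 1.44, above the 1.401 of Ntrk2, and Adcy2, an adenylyl cyclase, 0.998.

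Listed genes of transcription, chromatin and RNA binding, 28 in number, had a median of 1.22 over the 5 libraries. Above 1 were 21 (75%), against 84.9% of all 291. In dDAVP experiment 3 the median was 0.812, with 11 (39.3%) above 1, against 25.1%. Their median GC content was 42.6%, against 41.4%. Rbfox3, described above, was the highest by the mean over the 4 samples, but with a 5-library mean of 1.27. Arid1b, a subunit of the SWI/SNF remodeller, the RNA demethylase gene Fto and the homeodomain gene Cux1 had 5-library means of 0.856, 0.871 and 0.883, while Ldb2, a LIM domain binding factor, and Zfp385b, a zinc finger gene, had 1.31 and 1.298. Stag1, a cohesin subunit that is in none of the lists used, was the lowest of all 291 genes by the mean over the 4 samples, with 0.761, 0.718 and 0.262 in the dDAVP libraries, and 0.815, 0.795 and 0.893 in the vehicle libraries.

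Listed genes known from kidney tubule cells or podocytes, 17 of the 291, had a median of 1.13 over the 5 libraries. Above 1 were 11 (64.7%), against 84.9% of all 291. In dDAVP experiment 3 the median was 0.650, with 4 (23.5%) above 1, against 25.1%. Their median GC content was 42.7%, against 41.4%. Cacna1d, a voltage-gated calcium channel, was the highest by the mean over the 4 samples, with 1.202, 1.21 and 1.54 in the dDAVP libraries, and 1.17, 1.14 and 1.08 in the vehicle libraries, and its 5-library mean was 1.16. Its dDAVP libraries were all above its vehicle libraries, as in 8.93% of the 291 genes and 17.3% of the reference. The fitted log2 ratio of Cacna1d was 0.03 ± 0.38 (SE, edgeR adjusted p = 0.964). Mast4, given above with its place on chromosome 13, was the lowest. Nr3c2, the mineralocorticoid receptor through which aldosterone acts in principal cells, had 1.02, 0.991 and 0.606 in the dDAVP libraries, and 1.07, 1.07 and 1.21 in the vehicle libraries. It was below 1 in dDAVP experiments 2 and 3 and above 1 in the others. Pkhd1, the collecting duct protein mutated in recessive polycystic kidney disease, had a 5-library mean of 0.946. Kcnma1, the large-conductance potassium channel, and Magi2, a scaffold of the podocyte slit diaphragm, had 1.24 and 1.301.

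Listed genes at known common fragile sites, 20 in number, had a median of 1.204 over the 5 libraries. Above 1 were 19 (95%), against 84.9% of all 291. In dDAVP experiment 3 the median was 0.527, with 3 (15%) above 1, against 25.1%. Their median GC content was 39.3%, against 41.4%. Sdk1, an adhesion gene of retinal synapses, was the highest by the mean over the 4 samples, with 1.36, 1.33 and 1.13 in the dDAVP libraries, and 1.28, 1.26 and 1.22 in the vehicle libraries, all above 1. By the 5-library mean Magi2, at 1.301, was above Sdk1, at 1.29. Exoc4, a subunit of the exocyst, was the lowest, with 0.975, 0.957 and 0.535 in the dDAVP libraries, and 0.9597, 0.999 and 1.07 in the vehicle libraries. The 5 longest of the 291 were all in this list. Cntnap2, at 2241 kb, had 1.18, 1.19 and 0.501 in the dDAVP libraries, and 1.18, 1.21 and 1.41 in the vehicle libraries. Lrp1b, a relative of the LDL receptor of 2057 kb, Macrod2, which removes ADP-ribose from proteins, and Csmd1, a membrane protein with complement control domains, had 5-library means of 1.16, 1.13 and 1.27. The same genes in dDAVP experiment 3 had 0.389, 0.398 and 0.357. Fhit, a hydrolase gene that is lost in many tumours, had 1.16, 1.18 and 0.495 in the dDAVP libraries, and 1.16, 1.17 and 1.25 in the vehicle libraries. Each of the 5 longest was above 1 in every library but dDAVP experiment 3 and below 1 there.

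**Figure D4:**
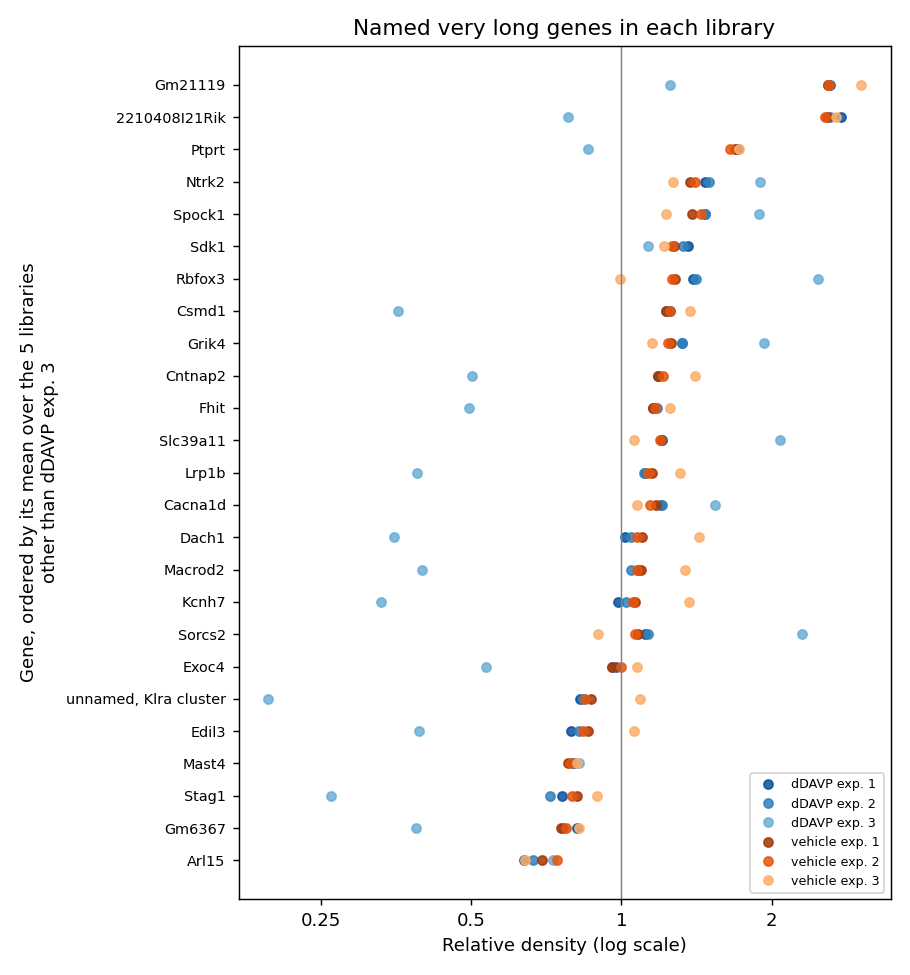
Relative density (log axis) in each library of the genes named by rule and reported here, ordered by the mean over the 5 libraries other than dDAVP experiment 3 (light blue points). The light blue points lie far from the other 5 in most rows, to the left for genes poor in GC such as Kcnh7 and to the right for genes rich in GC such as Sorcs2, and Arl15 is below 0.8 in all 6.

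A pair of uncharacterised genes stood far above the rest. Gm21119, at chr8:19729576-20063170 of mm10, had 2.61, 2.59 and 1.25 in the dDAVP libraries, and 2.596, 2.61 and 3.02 in the vehicle libraries, and its group means were 1.93 ± 0.954 (SD, n = 2) in the dDAVP group and 2.81 ± 0.294 (SD, n = 2) in the vehicle group. 2210408I21Rik, at chr13:77135536-77613679, had 2.75, 2.61 and 0.783 in the dDAVP libraries, and 2.59, 2.56 and 2.69 in the vehicle libraries. Both were at least 2.56 in the 5 libraries. The fraction of bases covered by at least 1 read did not follow in the second gene: relative to the chromosome it was 0.984 over the 5 libraries for 2210408I21Rik and 1.69 for Gm21119, against 1.51 for Ptprt. Spock1, the proteoglycan testican-1, was among the 5 highest by the mean over the 4 samples, with 1.47, 1.47 and 1.88 in the dDAVP libraries, and 1.38, 1.44 and 1.23 in the vehicle libraries, all above 1.2. The uncharacterised gene Gm6367 was among the 5 lowest, with 0.814, 0.764 and 0.387 in the dDAVP libraries, and 0.756, 0.776 and 0.823 in the vehicle libraries, all below 1. How reads that map to several places were counted is not given in the sources used here.

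Arl15, at chr13:113794508-114157461, was the only gene at most 0.8 times its chromosome in all 6 libraries, 0.344% of the 291 against 1.14% of the reference. It had 0.638, 0.665 and 0.729 in the dDAVP libraries, and 0.694, 0.742 and 0.642 in the vehicle libraries, with group means of 0.6901 ± 0.055 (SD, n = 2) and 0.6798 ± 0.0542 (SD, n = 2). The groups overlap, and its log2 ratio over experiments 1 and 2 was -0.14. Other genes of the distal part of chromosome 13 were also low. Before 60 Mb, a boundary set after the data were seen, the 14 very long genes had a median of 1.36 over the 5 libraries and 247 shorter reference intervals had 1.16. Ntrk2 and Spock1, named above as high, are among these 14. Beyond 60 Mb the 11 very long genes had 0.874 and 248 shorter intervals had 0.805, with 2210408I21Rik at 2.64 and Aopep and Mctp1, the only others above 1, at 1.08 and 1.03. Measured against the median of all 10 chromosomes together, Arl15 had a mean of 0.581 over the 4 samples, against 0.685 on its own chromosome.

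In the 5 libraries other than dDAVP experiment 3, as measured, most very long genes were denser than the genes beside them. Flanks were the longest intervals, of 20 to 300 kb, of other genes within 2 Mb of either end, and 279 genes had at least 3. The ratio of a gene to the median of its flanks, as a mean over the 5 libraries, had a median of 1.15 and was highest in 2210408I21Rik, at 3.27. In 199 genes the density was above the flanks in each of the 5 libraries, and in 22 below. Median GC content of the flanks was 43.4%. In dDAVP experiment 3 the median ratio was 0.797, and 200 of 279 genes were below their flanks. Spearman's rho between a gene and its flanks was 0.307, as a description of 279 pairs that share the libraries.

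**Figure D5:**
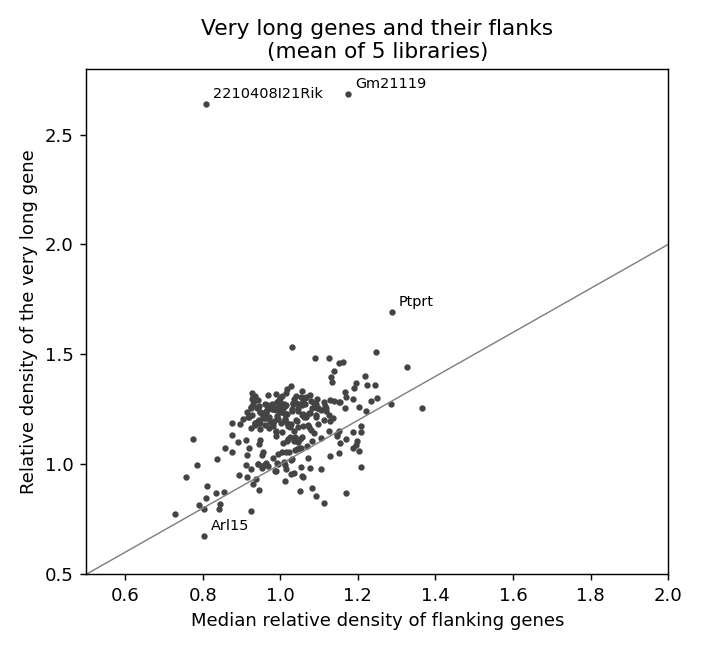
Relative density of 279 very long genes against the median of the genes within 2 Mb, both as means over the 5 libraries other than dDAVP experiment 3, with the line of equality. Most points lie above the line (199 in each of the 5 libraries), Gm21119 and 2210408I21Rik far above it, and Arl15 lies at the lower left.

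Within single genes the density was mostly even in the 5 libraries and less so in dDAVP experiment 3. For 38 of the genes a shorter transcript interval of at least 100 kb shares 1 end, so the gene could be split into that inner part and the remaining outer part. The ratio of outer to inner density over the 5 libraries had a median of 1.00, and 28 of 38 were within 10% of equality. In dDAVP experiment 3 the median was 0.99 and 14 of 38 were within 10%, from 0.492 in Dlc1, a tumour suppressor gene, to 1.87 in St18, a zinc finger gene. Over the 5 libraries it was highest in Arhgap24, which encodes a GTPase-activating protein and whose 5′ part of 287.4 kb had 1.37 times the density of its 129.1 kb of 3′ part, with 1.28 to 1.41 in the 5 single libraries and 1.199 in dDAVP experiment 3. Dst, a cytoskeletal linker, had 1.25 but 0.925 in dDAVP experiment 3, and Etl4 had 1.23 and 1.22. It was lowest in Hecw2, a ubiquitin ligase whose 3′ part had 0.812 times the density of the rest, with 0.734 to 0.889 in the 5 single libraries and 0.886 in dDAVP experiment 3. The outer and inner parts of Arhgap24 had GC contents of 41.6% and 41.4%, and those of Hecw2 of 40.9% and 41.2%. In Dlc1 they had 39.7% and 42.7%, and in St18 38.9% and 38.4%. Whether GC content accounts for the uneven parts in dDAVP experiment 3 was not tested.

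By chromosome, the median over the 5 libraries was above 1 on all 10, from 1.09 for 25 genes on chromosome 13 to 1.27 for 23 genes on chromosome 11. It was below 1 on all 10 in dDAVP experiment 3, from 0.559 on chromosome 8 to 0.783 on chromosome 13. Libraries ranked the 291 genes alike in experiments 1 and 2, with rho of 0.913 to 0.967 in the 6 pairs of those 4 libraries. Vehicle experiment 3 had rho of 0.545 to 0.709 with them, and 0.871 to 0.892 after division by the fit on GC content. dDAVP experiment 3 had -0.453 to 0.241 with the other 5 libraries, and 0.156 to 0.189 after that division.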

How the data were processed

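Only the 6 IgG libraries were used. Per the labels' protocols, chromatin was sheared to about 300 bp, a gel cut kept 200 to 400 bp, reads of 50 bp were made, and reads were mapped to mm10 with BWA. The submitters' processing notes also name SAMtools and bedtools, without versions. Per the file headers, each deposited count gives the reads that overlap the interval of a RefSeq transcript, introns included and not normalized, and each deposited fraction is the share of its bases with at least 1 read. For removal of duplicates and treatment of multiply mapped reads, the method is not given in the sources used here.

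Names came from RefSeq, 285 by transcript and 5 by reciprocal overlap of at least 90% in position, and 1 gene is unnamed. Intervals with under 200 aligned bases were set apart. Density, GC content (GRCm38.p6), flanks and parts were computed with Python 3.11.15, numpy 2.4.6, pandas 2.3.3 and scipy 1.17.1. Experiments 1 and 2 of a group were averaged, or their counts summed, as 1 sample. Chi-square used genes with at least 40 reads in a pair. The test used edgeR 4.0.16 in R 4.3.3 (TMM, filterByExpr, quasi-likelihood, two-sided, Benjamini-Hochberg at 0.05 over all intervals), with DESeq2 1.42.0 as an alternative. Scripts were tested on simulated data. Genes named by rule were the 5 highest and 5 lowest by mean relative density over the 4 samples, the 5 longest, the 3 largest and 3 smallest edgeR ratios, and the highest and lowest of each of 6 role lists. The values of 2 genes that this rule names are not reported here. Other genes named were chosen after their values were seen. The genes, lists and tests were chosen with earlier results of these data known.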

Additional observations from a re-analysis of the deposited data

How the results depend on the processing

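The treatment difference of the median relative density (-0.300) kept its sign in all 15 alternatives. Leaving out single libraries gave -0.304 to -0.036, the last without dDAVP experiment 3, and division by the fit on GC content gave -0.035. The count of 7 genes at 1.2 or more in every library was 17 after that division and 2 both by the fraction of bases covered and for genes of at least 500 kb. It was 7 to 85 over the libraries left out, 85 without dDAVP experiment 3 and 14 without vehicle experiment 3. The count of 1 gene at 0.8 or less was 2 against reference intervals of at least 50 kb, 5 against the median of the 10 chromosomes together, 0 for genes of at least 500 kb and 2 after division by the fit on GC content. With the intervals of microRNA transcripts included, these counts were 7 and 1.

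edgeR called 0 very long genes in 13 of its 14 alternatives, and 51 with experiments 1 and 2 alone, and DESeq2 called 0. With the offset for GC content Sorcs2, Kcnh7 and Dach1 changed sign, to log2 ratios of -0.0076, 0.022 and 0.0014, and with that offset and the replicate block to -0.0070, 0.022 and 0.0023. Deviations from the mean of their group correlated at -0.258, -0.273 and -0.461 between same-numbered experiments. Between dDAVP experiment 1 and vehicle experiment 2 the correlation was -0.278, and between dDAVP experiment 2 and vehicle experiment 1 it was -0.255. Experiments 1 and 2 of a group are nearly alike, so their deviations mirror that of experiment 3. These values therefore cannot show whether the experiments were paired, and the main test did not take the numbers as pairs. The replicate block gave 0 calls and a median log2 ratio of -0.65, its difference of -0.300 had an exact permutation p of 1.0, and crossed pairing of the summed samples gave 0 calls. Of the relative densities of genes named by rule, 292 of 297 recomputed values moved by at most 1 SD over the 4 samples. That SD includes dDAVP experiment 3, so the count cannot show whether values hold when this library is left out. Without it Csmd1 went from 1.05 to 1.27 and Arl15 from 0.685 to 0.666, both within that SD. The values that moved by more were Gm21119 (1.43), 2210408I21Rik (0.893) and Mast4 (0.841) by the fraction covered, and Arl15 (0.581) and Mast4 (0.686) against the 10 chromosomes together. With 2 samples per group and 1 of the dDAVP samples apart from the rest, a treatment difference of the size seen was not detectable.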
